A study of Rattus norvegicus with 325 samples.

Results

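The soleus and the gastrocnemius lie next to each other in the calf and pull on the same tendon, and the data described here compare them in young rats: 10 gastrocnemius libraries and 12 soleus libraries of 6 months of age, chosen by the muscle and the age in the sample labels, 22 of the 325 libraries of the series. All 22 came from male Sprague Dawley rats, an outbred strain, raised and aged under specific pathogen free conditions, with no treatment or transgene named for either group. Each library is bulk total RNA of muscle tissue kept in RNAlater, with ribosomal RNA removed and read pairs sequenced with strand kept. The rest of the series holds the same muscles at 6 older ages, as well as the tibialis anterior and the diaphragm. From it, the tibialis anterior of 6 months (12 libraries) is given beside some results, and the gastrocnemius and soleus of 9 months (12 libraries each) and 27 months (11 and 12 libraries) are used to see whether a difference was present in other animals and at another age. The labels do not say which part of the gastrocnemius was sampled or which libraries came from 1 rat.

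Skeletal muscle fibres are slow or fast. Slow (type 1) fibres contract slowly, resist fatigue and burn fat and sugar in their mitochondria, and the soleus, a postural muscle, is built mainly of them. Fast (type 2) fibres contract quickly and rely more on stored glycogen and on phosphocreatine, and most of the rat gastrocnemius is fast. Slow and fast fibres carry different members of the same protein families, from the myosin motor to the calcium pump, each encoded by its own gene.

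The regulatory windows of 4 of these genes are shown because their products define the fibre types in the results that follow: Tnnt1 encodes the troponin T of slow fibres, and Myh2, Myh1 and Myh4 encode the myosin heavy chains of type 2A, 2X and 2B fibres. The sequences are from RefSeq, build GRCr8, and run 5′ to 3′ on the plus strand, from 250 bases before the annotated start to 50 bases after it. Capitals mark the letters CANNTG (an E-box, the kind of site that MyoD family factors bind), CATTCC or its reverse complement (the MCAT motif) and TATAAA or its reverse complement, each searched on both strands.
Tnnt1 (chr1:78348785-78349084): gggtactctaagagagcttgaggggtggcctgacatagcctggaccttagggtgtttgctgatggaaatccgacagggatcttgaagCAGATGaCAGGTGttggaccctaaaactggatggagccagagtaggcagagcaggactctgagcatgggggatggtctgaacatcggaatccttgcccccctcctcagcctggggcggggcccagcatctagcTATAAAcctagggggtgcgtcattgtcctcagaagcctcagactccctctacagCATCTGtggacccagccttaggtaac
Myh2 (chr10:52355489-52355788): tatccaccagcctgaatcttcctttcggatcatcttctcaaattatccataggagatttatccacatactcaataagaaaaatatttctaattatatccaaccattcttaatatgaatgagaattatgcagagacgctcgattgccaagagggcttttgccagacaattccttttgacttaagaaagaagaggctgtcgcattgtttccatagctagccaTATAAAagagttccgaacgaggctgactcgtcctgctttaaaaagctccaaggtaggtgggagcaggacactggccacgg
Myh1 (chr10:52384662-52384961): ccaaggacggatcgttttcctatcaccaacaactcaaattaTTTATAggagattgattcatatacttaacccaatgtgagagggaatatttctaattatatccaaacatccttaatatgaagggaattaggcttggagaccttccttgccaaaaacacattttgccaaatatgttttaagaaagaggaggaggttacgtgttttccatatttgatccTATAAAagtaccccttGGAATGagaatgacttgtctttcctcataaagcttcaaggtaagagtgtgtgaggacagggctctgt
Myh4 (chr10:52421898-52422197): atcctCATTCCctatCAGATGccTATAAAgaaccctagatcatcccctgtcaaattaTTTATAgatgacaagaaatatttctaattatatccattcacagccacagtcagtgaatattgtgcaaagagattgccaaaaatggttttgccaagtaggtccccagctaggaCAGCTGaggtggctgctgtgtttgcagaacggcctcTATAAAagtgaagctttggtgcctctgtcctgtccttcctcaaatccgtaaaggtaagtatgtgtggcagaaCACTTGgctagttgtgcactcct

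The 3 myosin windows lie in order along chromosome 10. TATAAA began at base -30 in Tnnt1 and in Myh2, at base -33 in Myh1 and at base -45 in Myh4, counted back from the annotated start. Only 14.2% of the 33469 promoter windows in the same RefSeq table hold TATAAA on either strand, 14.2% hold CATTCC and 72.1% hold an E-box. Myh4 held 3 E-boxes and Tnnt1 held 3, whereas Myh2 and Myh1 held none in these windows. A site of the MEF2 type was found in the Myh1 and Myh4 windows and in 3.29% of all windows, and a CArG box in the Myh4 window and in 1.64% of all windows. Over the windows of genes called higher in gastrocnemius, 6.44% held TATAAA and 1.91% a MEF2 site, against 8.55% and 1.94% for genes called higher in soleus and 6.85% and 1.65% for all genes tested. These matches describe letters only.

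The libraries held 26.13 to 85.32 M counts in gastrocnemius (median 35.53 M) and 24.42 to 39.24 M in soleus (median 31.87 M). Muscle and one technical feature cannot be told apart: the running sample numbers of all gastrocnemius libraries form a separate series, whereas the soleus, tibialis anterior and diaphragm libraries share another. The counts assigned to ribosomal RNA genes also differed, at 0.437% to 5.31% of a gastrocnemius library (median 1.905%) against 0.205% to 0.284% of a soleus library, and the 10 most abundant genes took 26.48% to 32.58% and 19.36% to 21.02% of the counts. Gastrocnemius replicates 4 and 9 stood apart from the other 8 on the second principal component, with scores of -35.46 and -22.84 against -5.819 to 17.14. The calls of named genes that were lost without them are given beside those genes. Labels and markers fitted each other in all 22 libraries, as the myosin counts below show.

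Of 11475 genes with enough counts to test, 5273 (46.0%) differed between the muscles by more than 1.5-fold at an adjusted p under 0.05 (limma-voom, Benjamini-Hochberg). Higher levels in gastrocnemius were called for 2508 genes (21.9%) and higher levels in soleus for 2765 (24.1%). The largest differences were on the gastrocnemius side, where 135 genes differed by more than 8-fold and 23 by more than 64-fold, against 97 and 15 on the soleus side. Each side over 64-fold held a ribosomal RNA line, Rn28s in gastrocnemius and Rn18s in soleus. The 15 on the soleus side also included liver genes, whose levels differed widely between soleus libraries and which are described below. Every gastrocnemius library lay above every soleus library for 2420 genes (21.1%), and the reverse held for 2337 (20.4%). The split depended on how libraries were scaled. With scaling by total counts instead of trimmed means (TMM), the median difference over all genes moved from -0.05 to -0.45 on the log2 scale, and 1345 genes were called higher in gastrocnemius and 4899 higher in soleus. All further values use TMM scaling, and levels are log2 CPM (each gene relative to the scaled size of its library), which are not corrected for gene length and are compared only between muscles for the same gene.

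**Figure D1:**
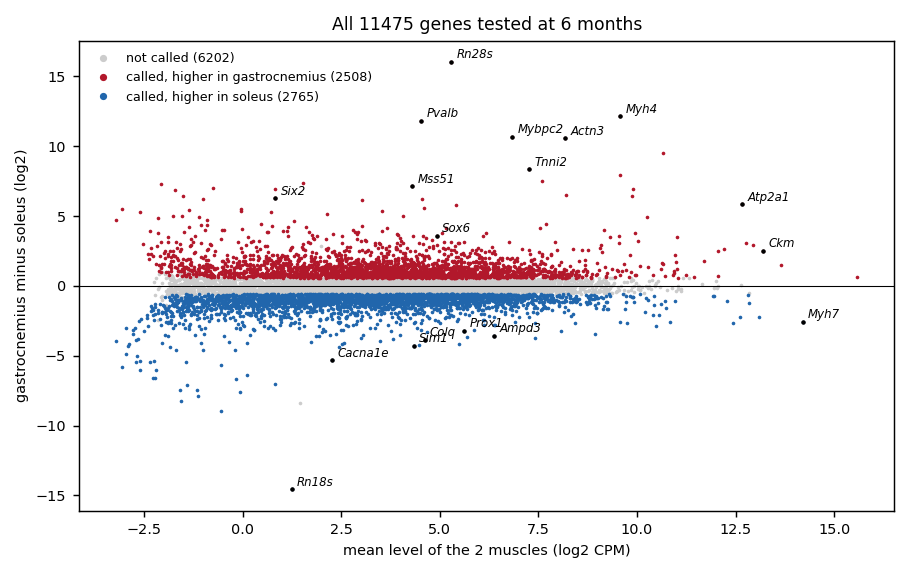
Gastrocnemius minus soleus difference (vertical axis, log2) against the mean level of both muscles (horizontal axis, log2 CPM) for the 11475 genes tested, each dot 1 gene. Red dots are the 2508 genes called higher in gastrocnemius, blue dots the 2765 called higher in soleus, and the named genes are described in the text.

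The myosin heavy chain, the motor of the sarcomere, separated the muscles almost completely. Myh7, the slow type 1 chain, took 95.07% to 99.91% of the counts of the 4 adult heavy chain genes in soleus (97.85% ± 1.99, SD, n = 12) and 4.742% to 9.301% in gastrocnemius (7.11% ± 1.42, n = 10). The difference of -90.7 percentage points was larger than the spread between libraries (two-sided permutation test with 100000 resamples, p = 1e-05, the smallest these can give). In gastrocnemius the counts were shared between Myh4 (46.6% ± 4.94) and Myh1 (40.1% ± 3.99), with Myh2 at 6.15% ± 1.10. Shares of counts are not corrected for gene length. Here and in all later results, fewer fibres or cells of a type cannot be told apart from less of the RNA in each.

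**Figure D2:**
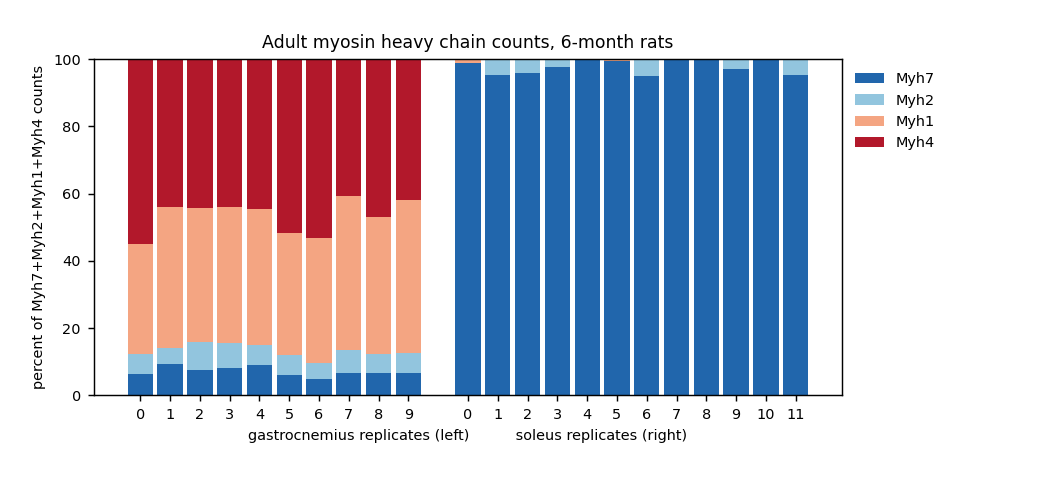
Share of each of 4 adult myosin heavy chain genes (vertical axis, percent of their summed counts) in each library, with 10 gastrocnemius libraries on the left and 12 soleus libraries on the right. Myh7 takes at least 95.07% of each soleus bar and at most 9.301% of each gastrocnemius bar.

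Slow genes were lower in gastrocnemius by a few fold, while their fast partners were higher by far more. Myh7 lay at 12.52 to 13.45 (median 12.83) log2 CPM in gastrocnemius and at 15.32 to 15.65 (median 15.48) in soleus, and no library overlapped. The gastrocnemius minus soleus difference was -2.57 ± 0.08. Myh4, the 2B chain, lay at 15.38 to 16.01 (median 15.63) in gastrocnemius and at 2.06 to 5.74 (median 3.01) in soleus, a difference of 12.15 ± 0.29 (adjusted p = 3.92e-22). Slow fibre transcripts were plentiful in both muscles, and 2B transcripts in gastrocnemius.

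The troponin complex, which gives the thin filament its calcium switch, showed the same asymmetry in all 3 subunits. Tnni1, the slow inhibitory subunit, lay at 6.84 to 7.96 (median 7.35) log2 CPM in gastrocnemius and 9.27 to 9.56 (median 9.39) in soleus, a difference of -1.98 ± 0.10. Tnni2, its fast partner, lay at 11.15 to 11.83 (median 11.38) and at -1.62 to 5.67 (median 4.17), a difference of 8.34 ± 0.64. Again no libraries overlapped, although soleus libraries differed from each other by far more in Tnni2 than in Tnni1. The tropomyosin binding subunit differed by -1.84 ± 0.08 for the slow Tnnt1 and by 7.97 ± 0.63 for the fast Tnnt3, and the calcium binding subunit by -0.76 ± 0.12 for the slow Tnnc1 and by 7.52 ± 0.46 for the fast Tnnc2.

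Over the list of slow sarcomere genes, 11 of 14 tested were called higher in soleus and 1 higher in gastrocnemius, with a median difference of -1.72, against -0.05 over all genes. All 13 fast sarcomere genes tested were called higher in gastrocnemius, with a median of 7.52. Among thick filament proteins, Mylpf, the fast regulatory light chain, differed by 6.42 ± 0.27, and Mybpc2, the fast myosin binding protein C, by 10.67 ± 0.44. Their slow partners did not pass the 1.5-fold threshold: Myl2 differed by -0.42 ± 0.10 and Mybpc1 by -0.50 ± 0.06, although both passed with scaling by total counts, at -0.81 and -0.89. The essential light chains differed by -1.60 for the slow Myl3 and 2.47 for the fast Myl1. At the Z disc, the difference was -1.05 for Actn2, the alpha actinin of all fibres, and 10.58 ± 0.42 for Actn3, the form restricted to fast fibres. Myoz2 and Myoz1, which anchor calcineurin at the Z disc in slow and fast fibres, differed by -2.19 and 6.54, and the tropomyosins by -2.90 for Tpm3 and 6.96 for Tpm1. The member called against its list was Myl6b, a non-muscle and slow muscle light chain, at 2.24 ± 0.23. It lay at 1.25 to 2.68 (median 2.08) log2 CPM in gastrocnemius and -1.33 to 0.80 (median -0.01) in soleus.

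The tibialis anterior, a fast muscle whose libraries share the number series of the soleus libraries, is given here for reference and shares those soleus libraries in the difference. Its difference from soleus was 12.82 for Myh4 and 7.67 for Tnni2. Slow genes lay further below soleus there: the difference was -4.53 for Myh7, -4.29 for Tnni1 and -2.99 for Myl2. The list medians were -3.45 for slow and 6.61 for fast sarcomere genes.

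**Figure D3:**
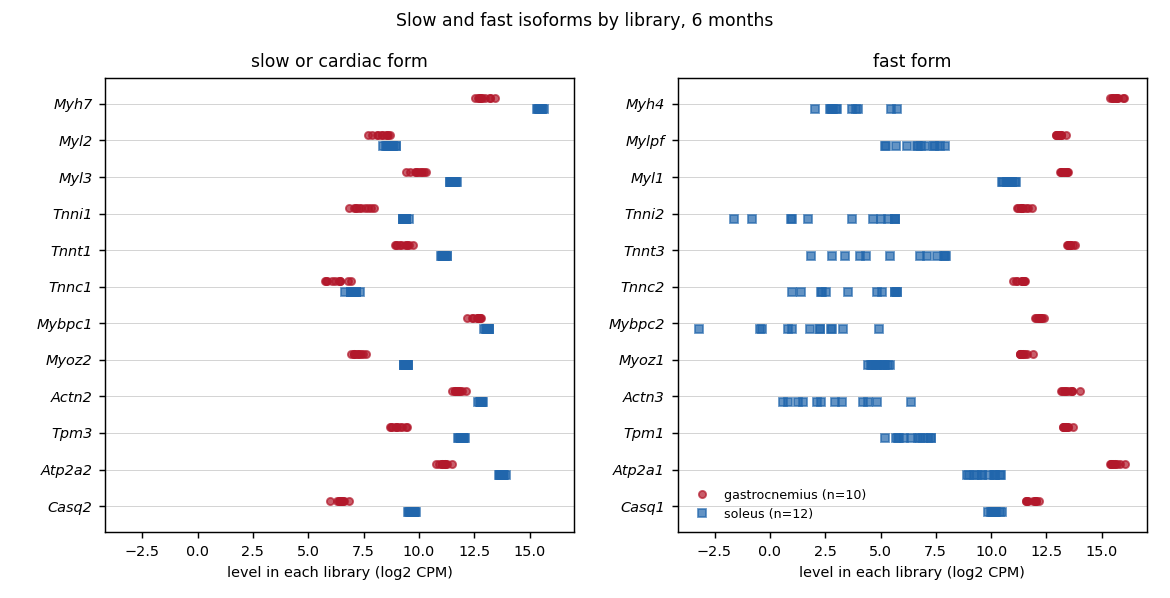
Level of 12 pairs of slow or cardiac (left) and fast (right) genes in each library (horizontal axis, log2 CPM), red circles for 10 gastrocnemius and blue squares for 12 soleus libraries. Slow genes lie to the right in soleus by a small step, fast genes lie far to the right in gastrocnemius, and the soleus libraries are spread most in Tnni2, Tnnt3, Mybpc2 and Actn3.

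Soleus libraries differed among themselves in their fast transcripts, in patterns that split by gene. These genes were taken from the fast lists after their values were seen, and no test was run. Myh2, the type 2A chain, lay at 9.90 to 11.10 log2 CPM in soleus replicates 1, 2, 3, 6, 9 and 11 and at 3.58 to 6.32 in the other 6. Tnni2 lay at 4.65 to 5.67 in those same 6 libraries and at -1.62 to 3.69 in the others. The 6 soleus libraries with the highest Myh2 were also the 6 highest for Tnni2, Tnnt3, Tnnc2, Mylpf and Tpm1. For Myh1, Myh4 and Actn3, 2 of those 6 were among the highest 6. Replicate 0 was the highest soleus library for Myh1 (8.74), Actn3 (6.36), Mybpc2 (4.93) and Pvalb (1.68), while its Myh2 was 6.32. Replicate 4 was the lowest for Tnni2 (-1.62), Tnnt3 (1.84), Myh4 (2.06), Actn3 (0.58) and Mybpc2 (-3.21). Myh2 itself was at 12.51 to 13.14 (median 12.62) in gastrocnemius and 3.58 to 11.10 (median 8.11) in soleus, and differed by 4.91 ± 0.92.

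Genes of the embryonic, neonatal and cardiac sarcomere moved in both directions. Of 6 tested, 4 were called higher in soleus and 1 higher in gastrocnemius. Myh8, the neonatal heavy chain, was higher in gastrocnemius by 4.11 ± 0.39, at 5.30 to 6.36 (median 5.66) log2 CPM against -0.50 to 4.86 (median 1.48). Myh3, the embryonic chain, was higher in soleus, with a difference of -2.56 ± 0.15. Soleus was also higher for the cardiac troponins Tnnt2 (-4.06 ± 0.30) and Tnni3 (-3.84 ± 0.49), the latter at 18 counts in all gastrocnemius libraries together.

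Calcium handling divided in the same way. The pump that returns calcium to the sarcoplasmic reticulum is encoded by Atp2a2 in slow and Atp2a1 in fast fibres. Atp2a2 lay at 10.78 to 11.51 (median 11.09) log2 CPM in gastrocnemius and 13.60 to 13.94 (median 13.76) in soleus, and Atp2a1 at 15.36 to 16.06 (median 15.54) and 8.93 to 10.44 (median 9.74). The differences were -2.65 ± 0.06 and 5.85 ± 0.17. Pvalb, parvalbumin, a cytosolic calcium buffer that speeds relaxation, lay at 10.10 to 10.77 (median 10.42) in gastrocnemius and -3.32 to 1.68 (median -1.33) in soleus and differed by 11.83 ± 0.37, with 11.80 for tibialis anterior minus soleus. The calcium storage protein calsequestrin differed by -3.24 ± 0.07 for Casq2 and 1.71 ± 0.08 for Casq1. Both small inhibitors of the pump were higher in soleus, sarcolipin (Sln) with a difference of -2.90 ± 0.22 and phospholamban (Pln) with -1.08 ± 0.11.

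The calcium release machinery was mixed: 5 of 10 tested genes were called higher in gastrocnemius and 1 higher in soleus (3 and 1 with scaling by total counts). Jsrp1, a junctional protein of the sarcoplasmic reticulum, differed by 2.36, the junctophilin Jph2 by 1.98 and the calcium channel subunit Cacng1 by 1.67. Trdn, triadin, which ties calsequestrin to the release channel, was called higher in soleus at -1.29 ± 0.24, and its groups overlapped. Its level was 8.46 to 11.15 (median 10.03) in gastrocnemius, lowest in replicates 4 and 9, and 11.09 to 11.53 (median 11.21) in soleus.

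Glycolytic genes were mostly higher in gastrocnemius, with a larger median difference than the respiratory chain lists. Of 24 genes tested, 17 were called higher in gastrocnemius and 2 higher in soleus (15 and 4 with scaling by total counts), with a median of 2.50. Pkm, pyruvate kinase, lay at 11.63 to 12.30 (median 11.74) log2 CPM against 7.90 to 8.21 (median 8.08) in soleus, a difference of 3.77 ± 0.07. Ldha, the lactate dehydrogenase subunit of fast fibres, differed by 3.99 ± 0.08, and Ldhb, the subunit of slow fibres and heart, by -0.94 ± 0.10. The glycerol phosphate shuttle, which carries reducing equivalents of glycolysis to mitochondria, differed by 4.43 ± 0.08 for its cytosolic enzyme Gpd1 and 3.75 ± 0.09 for its mitochondrial enzyme Gpd2. Pfkfb2, the heart form of the enzyme that sets fructose 2,6-bisphosphate, was higher in soleus (-0.98 ± 0.07).

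Of 15 glycogen genes tested, 7 were called higher in gastrocnemius and 3 higher in soleus, with a median of 0.30. Those higher in gastrocnemius included members that act in breakdown, with differences of 4.11 ± 0.07 for Phkg1 and 2.55 ± 0.06 for Phka1, catalytic and regulatory subunits of phosphorylase kinase, 3.06 ± 0.06 for Pygm, muscle phosphorylase, and 3.50 ± 0.06 for Pgm1, phosphoglucomutase. Those higher in soleus included 2 synthesis genes, with -1.89 ± 0.06 for the branching enzyme Gbe1 and -0.79 ± 0.04 for glycogenin, Gyg1.

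Genes of oxidative phosphorylation were also higher in gastrocnemius, by less. Muscle and number series cannot be told apart here either. Of 33 nuclear genes of complex I tested, 27 were called higher in gastrocnemius and 0 higher in soleus, with a median of 0.86, and with scaling by total counts the counts were 16 and 1. For complexes III, IV and V together, 29 of 36 were called higher in gastrocnemius and 0 higher in soleus, with a median of 0.86 (13 and 0 with scaling by total counts). The tibialis anterior minus soleus medians were 0.40 and 0.50, with 11 of 33 and 16 of 36 called higher in tibialis anterior and 0 and 2 higher in soleus. Over all genes in that comparison, 18.6% were called higher in tibialis anterior and 24.3% higher in soleus (42.9% in either direction). Atp5i, a subunit of ATP synthase, lay at 6.61 to 7.02 (median 6.79) log2 CPM in gastrocnemius and 3.55 to 4.15 (median 4.02) in soleus and differed by 2.87 ± 0.07, against 0.96 for tibialis anterior. Ndufb7 differed by 3.06 ± 0.16 in gastrocnemius and by 1.53 in tibialis anterior, and Cox7a2 by 2.10 ± 0.08 and 1.15. For Ndufs6, the difference was 2.11 ± 0.34 in gastrocnemius and -0.38 in tibialis anterior. Genes encoded in mitochondrial DNA are not analysed here.

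In the citric acid cycle, 10 of 22 genes were called higher in gastrocnemius and 1 higher in soleus (2 and 5 with scaling by total counts, so that the balance turned). Idh3a, of the NAD dependent isocitrate dehydrogenase, differed by 1.78 ± 0.04 and Suclg1, of succinyl-CoA ligase, by 1.01 ± 0.04. Idh2, the NADP dependent mitochondrial enzyme, was higher in soleus (-0.75 ± 0.06).

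Ribosomal protein genes were called higher in gastrocnemius more often than in soleus. Of 81 cytosolic ribosomal protein genes, 36 were called higher in gastrocnemius and 3 higher in soleus (26 and 11 with scaling by total counts), with a median of 0.46. In tibialis anterior minus soleus, 10 were called higher and 7 lower, with a median of -0.06. Rps28 lay at 5.81 to 6.91 (median 6.40) log2 CPM in gastrocnemius and 3.09 to 3.78 (median 3.44) in soleus, a difference of 2.92 ± 0.11 against 0.66 for tibialis anterior. For Rplp2 the values were 2.93 ± 0.18 and 0.95, for Rpl22 2.93 ± 0.17 and 0.98 and for Rps21 2.73 ± 0.16 and 0.58. Rps6 and Rps3a were higher in soleus, at -0.76 and -0.87. Of 68 mitochondrial ribosomal protein genes, 33 were called higher in gastrocnemius and 0 in soleus (19 and 5 with scaling by total counts), with Mrps28 at 3.60 ± 0.25 against 1.18 in tibialis anterior. Of 15 histone genes tested, 11 were called higher in gastrocnemius and 1 in soleus (7 and 2 with scaling by total counts), with a median of 0.96, and in tibialis anterior 4 of 17 were called higher and 0 lower. Hist2h2ab differed by 3.39 ± 0.33 against 0.39. Ribosomal protein and histone genes have near-identical copies, among which the counting could divide reads. Proteasome genes gave 10 of 37 higher in gastrocnemius and 2 in soleus (5 and 5 with scaling by total counts, and 1 in soleus without gastrocnemius replicates 4 and 9), led by Psmb9 (1.79) and Psmb6 (1.32). With TMM this share was below the 46.0% called over all genes (21.9% higher in gastrocnemius and 24.1% in soleus). In tibialis anterior minus soleus, 9 of 37 were called higher and 0 lower, against 18.6% and 24.3% of all genes. The medians in that fit were 0.26 for tibialis anterior and 0.25 for gastrocnemius. Muscle and number series cannot be told apart in these lists.

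**Figure D4:**
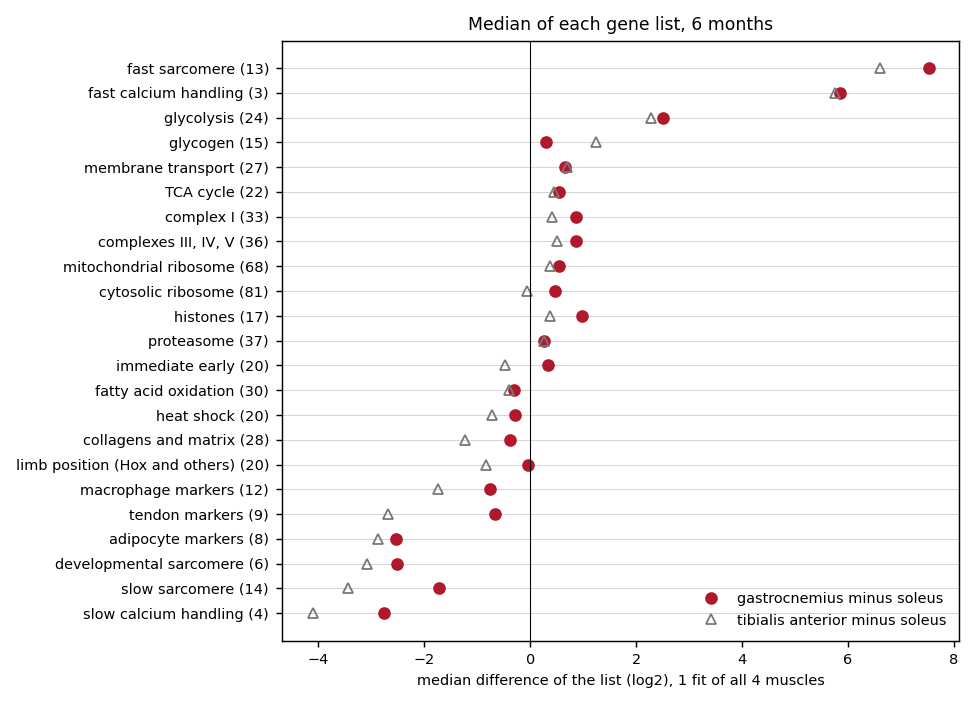
Median difference from soleus (horizontal axis, log2) of 23 gene lists, with the number of genes tested in brackets, for gastrocnemius (red circles) and tibialis anterior (open grey triangles) in 1 fit of 4 muscles that share the soleus libraries. The fast, glycolytic and slow lists lie on the same side of 0 in both muscles, while the circle lies to the right of the triangle for complex I (0.86 and 0.40), cytosolic ribosome (0.46 and -0.06) and histones (0.97 and 0.37).

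Of 30 genes of fatty acid uptake and oxidation, 10 were called higher in soleus and 5 higher in gastrocnemius (17 and 4 with scaling by total counts), with a median of -0.30. With TMM this share was near the 46.0% called over all genes. Without soleus replicates 7 and 11 the counts were 8 and 5. At 9 months they were 6 and 5, with a median of -0.03, against 22.0% and 21.2% of all genes. Lpl, lipoprotein lipase, which frees fatty acids from circulating fat, lay at 7.92 to 8.50 (median 8.26) log2 CPM in gastrocnemius and 10.74 to 11.03 (median 10.86) in soleus and differed by -2.60 ± 0.06. The fatty acid transporter Cd36 differed by -1.47 ± 0.10. Higher in gastrocnemius were Ucp3, a mitochondrial carrier of fasted and fast muscle (3.18 ± 0.21), and the acyl-CoA synthetase Acsl6 (2.36 ± 0.07). Ketone body enzymes gave 3 of 5 higher in soleus, with Bdh1, which oxidises 3-hydroxybutyrate, at -3.71 ± 0.13 and Oxct1 at -1.12 ± 0.09, and 1 higher in gastrocnemius (3 and 0 with scaling by total counts).

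Fat cell markers were higher in soleus, and lipid storage genes were mixed. Of 16 lipid storage genes, 7 were called higher in soleus and 3 in gastrocnemius (7 and 1 with scaling by total counts), with a median of 0.08, and Scd1, which makes monounsaturated fatty acids, differed by -3.79 ± 0.36. Of 8 adipocyte markers 7 were called higher in soleus and 1, Fabp4, in gastrocnemius (0.68 ± 0.11), a call lost with scaling by total counts. Adipoq, the fat cell hormone adiponectin, lay at 2.13 to 4.53 (median 2.93) log2 CPM in gastrocnemius and 3.91 to 6.51 (median 5.72) in soleus and overlapped, with a difference of -2.66 ± 0.30. The summed adipocyte markers ranged from 43.56 to 112.7 CPM in gastrocnemius and from 49.41 to 218.1 in soleus. Plin1, Cidec and Lep, which fat cells express, differed by -2.75, -2.39 and -3.03, and Cidea by -2.58. The part of fat cells in the lipid results was not tested. Dgat2 and G0s2, which build and protect stored triglyceride, were higher in gastrocnemius (1.22 and 0.92).

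High-energy phosphate enzymes that buffer ATP were higher in gastrocnemius. Ckm, muscle creatine kinase, lay at 14.15 to 15.06 (median 14.39) log2 CPM and at 11.75 to 12.12 (median 11.94) in soleus (2.52 ± 0.08), and Ak1, adenylate kinase, differed by 2.40 ± 0.11. Of the AMP deaminase genes, Ampd1, the muscle form, was higher in gastrocnemius (1.45 ± 0.05), and Ampd3, the form of red cells and heart, higher in soleus (-3.57 ± 0.07). Ampd3 lay at 4.27 to 4.93 (median 4.66) in gastrocnemius and at 7.94 to 8.35 (median 8.16) in soleus. In all, 6 of 10 genes of this list were called higher in gastrocnemius and 2 in soleus (4 and 2 with scaling by total counts), the other being Gatm of creatine synthesis (-0.67).

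Among 27 genes of membrane transport, 15 were called higher in gastrocnemius and 7 higher in soleus (11 and 8 with scaling by total counts). The monocarboxylate carriers that export and import lactate were unequal: Slc16a3 lay at 8.03 to 8.66 (median 8.29) log2 CPM in gastrocnemius and 0.83 to 3.86 (median 2.66) in soleus (5.79 ± 0.22), while Slc16a1 differed by -0.50 ± 0.06, under the threshold (-0.90 with scaling by total counts). Of the sodium pump beta subunits, Atp1b2 was higher in gastrocnemius (4.13 ± 0.08) and Atp1b4 in soleus (-1.47 ± 0.19). The water channel Aqp4, found in fast fibre membranes, differed by 3.79 ± 0.19, and the potassium channel Kcnc1 by 2.82 ± 0.14. Car3, the carbonic anhydrase of slow fibres, was higher in soleus (-2.07 ± 0.07).

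Of 40 regulators of fibre type tested, 13 were called higher in gastrocnemius and 7 higher in soleus (10 and 10 with scaling by total counts), a share near the 46.0% called over all genes. Sox6, a repressor of slow fibre genes, lay at 6.63 to 6.80 (median 6.72) log2 CPM in gastrocnemius and 2.94 to 3.67 (median 3.12) in soleus, a difference of 3.59 ± 0.06. Six2, a homeodomain factor of the family that activates fast genes, lay at 3.64 to 4.37 (median 3.98) and at -6.37 to -0.61 (median -2.02), and differed by 6.27 ± 0.39, against 3.84 for tibialis anterior. Maf, a large Maf factor linked to 2B fibres, differed by 2.56 ± 0.10. Higher in soleus were Prox1, a homeobox factor of slow fibres (-3.21 ± 0.06), and Esrrg, a nuclear receptor that drives oxidative genes (-2.21 ± 0.10). Prox1 lay at 3.76 to 4.29 (median 3.96) in gastrocnemius and 7.11 to 7.42 (median 7.25) in soleus. Ppargc1a, the coactivator of mitochondrial genes, differed by 0.21 ± 0.09, which is under the threshold and turned to -0.19 with scaling by total counts.

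Of 15 genes of myogenesis and satellite cells, 7 were called higher in soleus and 2 in gastrocnemius (9 and 2 with scaling by total counts), against 24.1% and 21.9% of all genes. At 9 months 4 of 15 were called higher in soleus and 2 in gastrocnemius, against 22.0% and 21.2% of all genes. Myod1, which is enriched in fast fibres, lay at 5.87 to 6.72 (median 6.24) log2 CPM in gastrocnemius and 2.93 to 3.98 (median 3.44) in soleus (2.83 ± 0.11), and the cadherin Cdh15 differed by 1.57 ± 0.10. Myf5, a factor of satellite cells, differed by -2.57 ± 0.11 and the adhesion molecule Vcam1 by -2.02 ± 0.12.

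At the neuromuscular junction, Ache, acetylcholinesterase, was higher in gastrocnemius (2.78 ± 0.09), and Colq, the collagen tail that anchors it, higher in soleus (-3.85 ± 0.14). Ache lay at 5.87 to 6.31 (median 6.15) log2 CPM in gastrocnemius and 3.00 to 4.02 (median 3.31) in soleus, and Colq at 2.07 to 3.12 (median 2.72) and 6.12 to 6.88 (median 6.62), with no overlap in either. Chrng, the fetal acetylcholine receptor subunit, was higher in soleus (-2.71 ± 0.42) with overlap, and Unc5a, a netrin receptor, higher in gastrocnemius (3.92 ± 0.30). Of 21 junction genes, 4 were called higher in gastrocnemius and 6 in soleus (2 and 10 with scaling by total counts). With TMM this share was near the 46.0% called over all genes.

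Of 29 genes of growth factors, their receptors and inhibitors tested, 9 were called in each direction (8 higher in gastrocnemius and 12 in soleus with scaling by total counts). Mstn, myostatin, which limits muscle growth, lay at 2.99 to 4.47 (median 3.34) log2 CPM in gastrocnemius and -2.11 to 1.66 (median 1.07) in soleus (2.62 ± 0.27), and its close relative Gdf11 was higher in soleus (-1.84 ± 0.11). Inhba, which encodes activin A subunits, was higher in soleus (-1.08 ± 0.26). Ostn, the muscle hormone osteocrin or musclin, lay at 0.58 to 2.30 (median 1.57) in gastrocnemius and -6.41 to -1.84 (median -6.10) in soleus, where replicate 0 was the highest library. Il15 and Fgf2 differed by 3.25 ± 0.18 and 3.11 ± 0.24.

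Of 21 protein turnover genes tested, 5 were called higher in gastrocnemius and 3 in soleus (3 and 5 with scaling by total counts), against 21.9% and 24.1% of all genes, among them Trim63, the ubiquitin ligase MuRF1, at 1.22 ± 0.06, Map1lc3a of autophagosomes at 2.72 ± 0.10, Murc (cavin 4) at 1.01 and, on the soleus side, the mitophagy receptor Bnip3 at -1.68 ± 0.06. Fbxo30, a ubiquitin ligase, was called higher in soleus at -0.73 ± 0.13, and at -0.50 without gastrocnemius replicates 4 and 9 it was not.

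Of 20 chaperone genes tested, 7 were called higher in soleus and 2 in gastrocnemius (13 and 2 with scaling by total counts), against 24.1% and 21.9% of all genes. The small heat shock proteins Hspb6 and Hspb7, which protect the sarcomere, differed by -2.26 ± 0.07 and -2.59 ± 0.06, and Hsp90aa1 by -1.62 ± 0.17. Unc45b, the myosin chaperone, and Hspa4l were higher in gastrocnemius (1.08 and 2.36). Antioxidant genes gave 11 of 24 higher in soleus and 8 in gastrocnemius (12 and 4 with scaling by total counts), with glutathione peroxidase Gpx1 at -1.70 ± 0.06, Prdx5 at 1.75 ± 0.11 and thioredoxin Txn1 at 2.56 ± 0.12, the last at 0.48 in tibialis anterior. Of 28 genes of force sensing and the costamere, 8 were higher in soleus and 6 in gastrocnemius (14 and 3 with scaling by total counts). With TMM these shares were near the 24.1% and 21.9% of all genes. Fhl1 and Fhl2, LIM proteins that bind the giant protein titin, were higher in soleus (-2.23 ± 0.06 and -3.54 ± 0.19), as was Ankrd2, a stretch-responsive ankyrin repeat protein on the slow list (-2.64 ± 0.12). Pdlim1 was higher in soleus (-2.02), and Pdlim3 in gastrocnemius (1.64).

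Of 19 homeobox and T-box genes of limb position tested, 4 were called higher in gastrocnemius and 3 in soleus (2 and 8 with scaling by total counts), a smaller share than the 46.0% called over all genes. Hoxd9 lay at 4.63 to 5.30 (median 4.91) log2 CPM in gastrocnemius and 2.10 to 3.33 (median 2.66) in soleus, a difference of 2.22 ± 0.11, and Hoxd10 at 2.03 to 2.93 (median 2.51) and -0.72 to 1.59 (median 0.36), a difference of 1.97 ± 0.20. In tibialis anterior minus soleus these were -2.40 and -3.77, so the tibialis anterior lay below soleus where gastrocnemius lay above it. Hoxc8 was higher in soleus (-1.56 ± 0.11). Sim1, a factor of the ventral migrating muscle precursors of the limb, lay at 0.85 to 2.90 (median 2.36) in gastrocnemius and 6.22 to 6.70 (median 6.47) in soleus, a difference of -4.30 ± 0.14 against -0.08 for tibialis anterior and -10.36 for the diaphragm.

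Among genes with a mean level over 2 log2 CPM, Cacna1e had the largest called difference on the soleus side. Cacna1e, a voltage-gated calcium channel, lay at -1.16 to 0.42 (median -0.45) log2 CPM in gastrocnemius and 4.22 to 5.45 (median 5.04) in soleus (-5.32 ± 0.36), the anion exchanger Slc4a3 differed by -4.18 ± 0.10 and the potassium channel Kcnj13 by -4.16 ± 0.22. The monocarboxylate carrier Slc16a7 differed by -3.96 ± 0.14. Among the 12 largest were also Tecrl, an endoplasmic reticulum protein tied to cardiac rhythm (-4.26 ± 0.14), Tceal7 (-3.76 ± 0.14) and Zfp474 (-4.37 ± 0.23). On the gastrocnemius side, Mss51, a mitochondrial protein of glycolytic muscle, lay at 7.67 to 8.17 (median 7.76) and 0.12 to 1.20 (median 0.66) (7.14 ± 0.13).

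Without that limit on level, 7 of the 15 called genes with the largest difference on the soleus side were among 8 liver genes. The 8 were chosen after their values were seen, and they are not every liver gene among the 15. Pzp, Serpina3c, Fetub, Cps1 and Hrg were also there, at -7.47, -7.47, -6.57, -6.56 and -6.05. The largest difference among the 15 was that of the ribosomal RNA line Rn18s. Levels of the 8 liver genes differed widely between soleus libraries. Alb, serum albumin, lay at -5.89 to -1.13 (median -2.60) log2 CPM in gastrocnemius and 1.87 to 10.20 (median 6.24) in soleus, highest in soleus replicates 11 (10.20), 7 (8.81) and 6 (7.68). Its difference of -8.41 ± 4.07 was not called (adjusted p = 0.0615, limma-voom), although no libraries overlapped. Alb was called with the edgeR quasi-likelihood test (-9.83, adjusted p = 5.43e-08) and with DESeq2 (-9.92, adjusted p = 7.05e-33). Apob, the protein of very low density lipoprotein, was called at -8.97 ± 3.47, and Gc, Mug1, A1i3, Ahsg, Serpina1 and Fga, all plasma proteins made in liver, were called at -8.22, -7.90, -7.58, -7.06, -6.41 and -6.04. The sum of all 8 ran from 0.117 to 1.07 CPM in gastrocnemius and from 10.7 to 2160 CPM in soleus. Without soleus replicates 7 and 11, 5212 genes were called in place of 5273, 2523 higher in gastrocnemius and 2689 higher in soleus. Alb was then called, at -7.68 (adjusted p = 0.0155, limma-voom), while Gc and Fga had too few counts to be tested. Without gastrocnemius replicates 4 and 9, the calls of Apob (adjusted p = 0.113), A1i3 (0.124), Gc (0.0717) and Serpina1 (0.0712) were lost, all by limma-voom. The call of A1i3 was also lost without any 1 of gastrocnemius replicates 1, 3, 4, 6 and 8 (limma-voom adjusted p from 0.0509 to 0.0706), and that of Apob without replicate 4 (0.0549). At 9 months these 8 genes had too few counts to be tested, and their mean differences were -0.74 for Alb, 0.34 for Apob, -0.22 for Gc, -0.75 for Mug1, 1.51 for A1i3, -0.35 for Ahsg, -1.18 for Serpina1 and 0.08 for Fga. The part of liver RNA in the other results was not tested.

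Activity-related and clock genes were called in both directions. With TMM, the share of each list called was near the 46.0% called over all genes (21.9% higher in gastrocnemius and 24.1% in soleus). Of 20 immediate early genes, 8 were called higher in gastrocnemius and 2 in soleus (5 and 5 with scaling by total counts), and the tibialis anterior had 6 higher and 8 lower than soleus. The nuclear receptor Nr4a1 differed by 2.25 ± 0.24, the phosphatase Dusp1 by 1.59 ± 0.19 and Fosl2 by 1.74 ± 0.19, while Myc was higher in soleus (-1.45 ± 0.17). Egr3 was called higher in soleus at -1.24 ± 0.48 and was not called with the edgeR quasi-likelihood test (-0.83). Of 15 clock genes, 4 were higher in gastrocnemius and 2 in soleus (1 and 6 with scaling by total counts), with Npas2 higher in soleus (-1.22 ± 0.13) and Tef higher in gastrocnemius (1.09 ± 0.09). Tissues of 1 age group were collected on 1 day between morning and early afternoon, and the hour for each animal is not given.

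Connective tissue and immune cell genes that were called were mostly higher in soleus. Of 28 collagen and matrix genes, 12 were called higher in soleus and 1, Timp2, in gastrocnemius (0.62 ± 0.08), which became 21 and 0 with scaling by total counts, with periostin (Postn) at -2.00 ± 0.19 and biglycan (Bgn) at -1.41 ± 0.08. Macrophage markers gave 7 of 12 higher in soleus and 0 in gastrocnemius (11 and 0 with scaling by total counts), with the mannose receptor Mrc1 at -0.98 ± 0.10 and Cd68 at -0.99 ± 0.11, and their sum ranged from 120.0 to 194.9 CPM in gastrocnemius and 187.4 to 307.9 in soleus. Tendon markers gave 5 of 9 higher in soleus and 1, Fmod, in gastrocnemius (0.67 ± 0.12), a call lost with scaling by total counts, with Tnmd at -1.57 ± 0.20 and lubricin (Prg4) at -2.19 ± 0.10. Endothelial markers gave 3 of 15 higher in soleus and 1 in gastrocnemius (8 and 0 with scaling by total counts), and fibroblast markers 1 of 10 in each direction (4 in soleus and 1 in gastrocnemius with scaling by total counts, and 3 in soleus without gastrocnemius replicates 4 and 9). With TMM and all libraries, the endothelial and fibroblast lists were called at a smaller share than the 46.0% of all genes. Smooth muscle and pericyte markers gave 4 of 10 higher in soleus, with Myh11 at -0.96 ± 0.12, and 1 in gastrocnemius, Lmod1 (3.04 ± 0.12), and 7 and 1 with scaling by total counts. Schwann cell markers went both ways, with 2 of 9 called higher in gastrocnemius and 4 in soleus (1 and 5 with scaling by total counts), among them S100b at -1.66 ± 0.19. T cell markers gave 3 of 4 higher in soleus, neutrophil and mast cell markers 3 of 5 (5 with scaling by total counts), and no B cell marker had enough counts to test (summed, at most 0.6019 CPM in a library). Red cell genes gave 2 of 5 higher in gastrocnemius (1 in each direction with scaling by total counts), Hba1 at 0.67 ± 0.11 and its near-identical copy Hba2 at 4.37 ± 0.72, the latter with overlap. The part of these cells in the other results was not tested.

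The lines for ribosomal RNA went in opposite directions. Rn18s had 0 counts in all 10 gastrocnemius libraries and 276 to 469 CPM in soleus (median 374), at least 3890-fold higher against a floor of 3 counts per library. Rn28s was the reverse in most libraries, at 7.45 to 15.67 (median 13.85) log2 CPM in gastrocnemius against -6.37 to 7.73 (median -5.99) in soleus, and overlapped. Rn45s, the precursor, lay at 11.84 to 13.54 (median 12.43) and 10.19 to 11.04 (median 10.91) (1.77 ± 0.15). Leaving these lines out before scaling gave 5270 called genes in place of 5273.

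Gastrocnemius libraries varied more than soleus libraries in most genes. Over the 8618 genes with a mean above 2 log2 CPM, the median SD was 0.183 in gastrocnemius and 0.128 in soleus, and 70.7% of genes had the larger SD in gastrocnemius. Without replicates 4 and 9 the gastrocnemius median was 0.144. An SD over 1 went the other way, with 10 such genes in gastrocnemius and 20 in soleus, all libraries kept. In gastrocnemius replicates 4 and 9 Trdn was at its lowest, together with Nexn and Xirp2, which were named after their loadings were seen. Xirp2, a large actin-binding protein, lay at 10.36 to 13.43 (median 12.24) in gastrocnemius and 13.24 to 13.69 (median 13.46) in soleus, and Nexn, a Z disc protein, at 5.42 to 8.32 (median 7.33) and 7.62 to 8.02 (median 7.90). The call of Nexn (-0.70 ± 0.25) was lost without both, at -0.32 (limma-voom adjusted p = 0.0611), and without replicate 4 (-0.50) or 9 (-0.56) alone. With all libraries kept, Nexn was not called by the edgeR quasi-likelihood test (-0.45, adjusted p = 0.0825) or by DESeq2 (-0.42, adjusted p = 0.119). The 5 genes with the highest SD in gastrocnemius were LOC100911576 (3.61), Rn28s (2.33), Cd1d1 (1.97), Cish (1.72) and Nr4a2 (1.33).

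At 9 months, in other rats, most genes called at 6 months were called again. Of 11362 genes tested, 4915 (43.3%) were called, 2411 (21.2%) higher in gastrocnemius and 2504 (22.0%) higher in soleus. Of the 5157 genes called at 6 months and tested at both ages, 4551 (88.2%) were called in the same direction at 9 months, 0 in the opposite direction and 606 were not called. Those 4551 were 93.1% of the 4887 called at 9 months. The 9-month gastrocnemius libraries also belong to the separate number series.

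By 27 months the muscles had come closer in their fast genes. The change in the difference was tested in 1 fit of the 4 groups, and 1579 of 11981 genes (13.2%) changed, 1007 (8.40%) towards gastrocnemius and 572 (4.77%) towards soleus. At 27 months itself 4115 genes (34.3%) were called. Of 13 fast sarcomere genes 12 changed towards soleus and 0 towards gastrocnemius, with a median change of -2.52, and of 24 glycolytic genes 13 changed towards soleus and 0 towards gastrocnemius. Of 14 slow sarcomere genes 2 changed, both towards gastrocnemius.

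For Myh4, the difference was 7.80 at 27 months, a change of -4.35 (adjusted p = 1.37e-06), with means of 15.77 and 14.47 log2 CPM in gastrocnemius and 3.61 and 6.68 in soleus at 6 and 27 months. Pvalb stayed at 10.51 and 10.32 in gastrocnemius and was at -1.25 and 4.73 in soleus, a change of -6.27 in the difference. For Actn3 the change was -4.93. Some genes higher in young soleus changed towards gastrocnemius. Ampd3 was at 4.70 and 7.35 in gastrocnemius and at 8.27 and 8.25 in soleus, a change of 2.69. Sln was at 0.58 and 6.14 in gastrocnemius and at 3.54 and 5.65 in soleus, so that its gastrocnemius mean was the higher one at 27 months, a change of 3.37. Gdf11 was at 3.26 and 4.69 in gastrocnemius and 5.09 and 4.30 in soleus, and the order of its means also turned (2.22). The differences in Myh7 (0.25, adjusted p = 0.537) and Hoxd10 (0.16, adjusted p = 0.719) gave no call of change. Animals of 1 age shared a collection day, and day cannot be told apart from age where it differed.

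**Figure D5:**
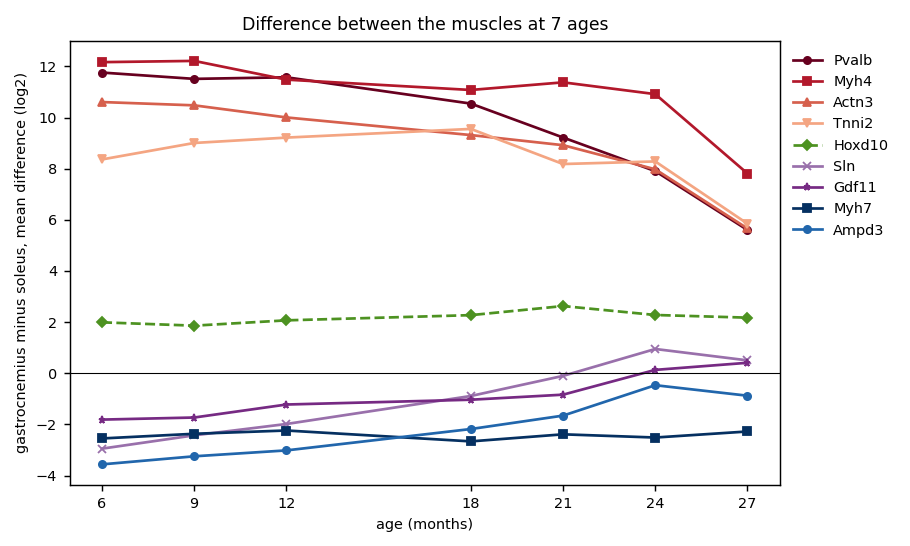
Mean gastrocnemius minus soleus difference (vertical axis, log2) of 9 genes at 7 ages (horizontal axis, months), 1 line per gene, with no error shown. Pvalb, Myh4 and Actn3 fall from over 10 at 6 months to 5.60, 7.81 and 5.66 at 27 months, Sln and Gdf11 cross 0, and Myh7 and Hoxd10 stay near their 6-month values.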

How the data were processed

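RNA of 22 muscle samples was sequenced, and the deposited values are raw counts of read pairs per gene line, which the authors made with the ArrayStudio pipeline against a rat reference named B6.0 and a gene model based on RefSeq; the version of the pipeline is not given in the sources used here. Lines that shared a gene symbol were summed, which gave 17315 symbols from 17870 lines. Genes with too few counts were removed with filterByExpr (minimum count 10, minimum total 15), which left 11475. Libraries were scaled by TMM in edgeR 4.0.16, and the groups were compared by limma-voom in limma 3.58.1 (R 4.3.3), without covariates, with Benjamini-Hochberg adjustment. A gene was called at an adjusted p under 0.05 and a difference over 1.5-fold. Differences are gastrocnemius minus soleus on the log2 scale, given with ± the standard error, and levels are log2 CPM with a prior of 0.5. The labels do not tie libraries to animals, so p-values measure the spread between these libraries.

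Named genes were both label checks, the isoform pairs, the 12 called genes with the largest difference in each direction at a mean over 2 log2 CPM, up to 4 members of each list with the largest difference and up to 2 called against its direction, and the 5 genes with the highest SD in gastrocnemius. Myh2, Xirp2, Nexn and all liver genes named were chosen after their values were seen. The members and lists were chosen with earlier results of these data known. Scripts were tested on simulated counts. Alternatives included edgeR's quasi-likelihood test, DESeq2 1.42.0, other scalings, filters and thresholds, and leaving libraries out. Promoter sequences were taken from RefSeq (GRCr8), and 14810 symbols matched a RefSeq gene. Some genes that the rule names are not reported here.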

Additional observations from a re-analysis of the deposited data

Results flagged for a closer look

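Among the 10 gastrocnemius libraries, 10 of 189 values examined held a library far from the others by Dixon's criterion, and chance marks about 1 in 20. Replicate 4 was highest for Mylpf (13.38 log2 CPM), Tpm1 (13.69), Gpd2 (7.33) and Hoxd9 (5.30). Replicate 3 was lowest for Cish (1.56) and highest for Gc (-4.50). In all gastrocnemius libraries Gc lay near the floor, at -6.37 to -4.50 log2 CPM. Replicate 0 was highest for Dusp1 (8.44), replicate 2 lowest for LOC100911576 (-5.99) and replicate 5 lowest for Rn28s (7.45). The LOC100911576 value in replicate 2 is also near the floor. Replicate 1 held the most counts (85.32 M).

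The gastrocnemius minus soleus difference changed between 6 and 27 months in 24 of the isoform and age genes (limma-voom, 1 fit of 4 groups, adjusted p under 0.05 and over 1.5-fold). The age genes are a chosen list, so 24 is not a rate. Of the 30 genes of the isoform pairs, 14 changed towards soleus and 3 towards gastrocnemius, against 4.77% and 8.40% of all genes. Fast sarcomere genes changed towards soleus: Actn3 by -4.93, Myh4 by -4.35, Mylpf by -3.11, Tnnt3 by -3.08, Tnnc2 by -2.89, Tnni2 by -2.52, Mybpc2 by -2.51, Tpm1 by -1.98, Myoz1 by -1.61 and Myl1 by -1.17. The fast calcium genes Pvalb, Atp2a1 and Casq1 changed by -6.27, -2.03 and -0.89. Ache changed by -1.90, Ldha by -1.29 and Slc16a3 by -0.99. Changes towards gastrocnemius were 3.37 for Sln, 2.69 for Ampd3, 2.49 for Tceal7, 2.22 for Gdf11, 1.67 for Car3, 1.61 for Myh3, 1.31 for Casq2 and 0.78 for Myoz2.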

How the results depend on the processing

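Of 181 named genes examined, 141 kept direction and call in every alternative run, and 0 of the genes called in the comparison at 6 months were called in the opposite direction under any. Leaving out 1 library at a time gave 5188 to 5389 called genes, 2453 to 2555 higher in gastrocnemius and 2713 to 2860 higher in soleus, and 4779 of 5273 calls (90.6%) were made in all 22 such fits; the myosin share difference ranged from -90.996 to -90.48 percentage points. Scaling by total counts moved the split to 1345 and 4899, and turned Cd1d1 to -0.33, Nr4a2 to -0.026 and Ppargc1a to -0.19, none of them called. Cd1d1 ranged from -0.117 to 0.409 when single libraries were left out. A 2-fold threshold, stricter by construction, gave 2697 genes at 6 months (1334 and 1363), 2375 at 9 months and 545 for the change to 27 months, and Bonferroni adjustment gave 528 for that change. The change in Myl3 turned to 0.047 with the quasi-likelihood test and 0.117 with total counts. Same-numbered libraries did not deviate together (r from -0.289 to 0.235 over 10 pairs), and the fit with a replicate block gave 5199 called genes. Without gastrocnemius replicates 4 and 9, 5134 were called. DESeq2 called 5199 and the quasi-likelihood test 5230.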
